A study of Mus musculus with 2 samples.

Results

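Guanylate-binding proteins (GBPs) are large GTPases of the dynamin superfamily, and this account covers 7 mouse GBP genes, Gbp2, Gbp3, Gbp4, Gbp5, Gbp6, Gbp7 and Gbp9, in LPC-HRas mouse liver tumour cells. The 7 were chosen from 12 annotated GBP genes by symbol, with their measured levels and differences in these 2 libraries already known. They are the GBP genes with 1 TPM or more in either library, out of 55487 gene records with a symbol. Gbp2b, Gbp8, Gbp10, Gbp11 and the pseudogene Gbp2-ps stayed below that level in both libraries. Each of the 7 symbols has a single record, so all 7 are accounted for and all 7 passed the filter on low values.

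The study sequenced total RNA from LPC-HRas cells, labelled as mouse hepatocellular carcinoma cells, that had been infected with lentivirus. One group received the control hairpin shRFP and the other a hairpin against Etv4, shETV4. All cells of both groups therefore carried the LPC-HRas background and a lentiviral short hairpin. There was 1 library per group, so no value below has a replicate check and no difference could be tested; how many hairpin sequences, clones and cultures were used is not stated in the labels.

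GBPs are induced by interferons in immune and non-immune cells, most strongly by interferon-gamma, through IRF1 and other factors that bind short elements near the gene starts. The proteins assemble on the membranes of vacuoles that hold microbes and on the surface of bacteria in the cytosol. There they act with the immunity-related GTPases (IRGs) and the ATG8 conjugation system and promote signalling through caspase-11, encoded in the mouse by Casp4. Some family members are anchored to membranes by a prenyl group added at their C terminus.

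Matches to motifs of such elements are shown first, because the 4 members on chromosome 3 share a match to one of these motifs. RefSeq promoter windows of 300 bases, 250 before and 50 after an annotated start on GRCm38.p6, were at hand for 5 of the 11 GBP genes other than Gbp2-ps, all on the plus strand of chromosome 3. Gbp4, Gbp6, Gbp8, Gbp9, Gbp10 and Gbp11 were not in the promoter table. The windows were searched on both strands for GAAANNGAA, the core of the interferon-stimulated response element (ISRE). They were also searched for TTCNNNGAA, the gamma-activated site (GAS) of interferon-gamma target genes, which reads the same on both strands. The third motif was AGGAAG, a core bound by ETS factors of the PEA3 group, to which Etv4 belongs. The following lines give 30 bases around the first ISRE core of each gene, written 5′ to 3′ on the plus strand, with capitals for ISRE matches. The core lies on the minus strand in all 5, so that it is read here as its reverse complement.
Gbp2, chr3:142620595-142620624: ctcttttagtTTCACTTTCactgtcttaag
Gbp2b, chr3:142594701-142594730: tacttctaatTTCACTTTCttctttatcac
Gbp3, chr3:142559990-142560019: aggacacagtTTCAGTTTCTATTTCccaga
Gbp5, chr3:142496760-142496789: cttgtgtagtTTCAATTTCagtttagagaa
Gbp7, chr3:142530274-142530303: tgtgtgcagtTTCAGTTTCagttctccatc

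Gbp2 and Gbp2b held the same 9 letters at the core, and so did Gbp3 and Gbp7. Gbp3 carried a second, overlapping match. Counted from the RefSeq start, the first core covered bases -58 to -50 in Gbp2, -52 to -44 in Gbp7 and -44 to -36 in Gbp3. It lay farther upstream in Gbp5, at -164 to -156, and in Gbp2b, at -136 to -128. In Gbp2 the match falls just inside the GENCODE gene model, which starts at 142620602. Of the 6 windows of these 5 genes (Gbp3 has 2 starts), 5 held an ISRE core, against 8.56% of all 32851 windows of the same length.

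The GAS letters were found in 2 of the 6 windows, those of Gbp5 and Gbp7, against 8.30% of all windows. Gbp7 is shown in full upstream of its start because it holds both elements. It carries GAS matches at -106 to -98 and -87 to -79 and the ISRE core after them, all in capitals.
Gbp7, chr3:142530086-142530335: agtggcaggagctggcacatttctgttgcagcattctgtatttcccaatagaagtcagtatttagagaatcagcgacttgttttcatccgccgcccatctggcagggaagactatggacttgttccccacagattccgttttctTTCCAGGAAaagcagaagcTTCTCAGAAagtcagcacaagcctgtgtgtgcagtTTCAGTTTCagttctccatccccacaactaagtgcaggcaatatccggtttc

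In Gbp5 the GAS matches covered -245 to -237 and -52 to -44. Both elements together occurred in 1.07% of all windows. AGGAAG was in none of the 6 windows and in 35.4% of all windows. These matches are descriptions of letters in a window, not binding sites. Gbp2b holds an ISRE core like the 4 members on chromosome 3 and was listed at 0 TPM in both libraries.

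Every one of the 7 members had a higher TPM in the shETV4 library than in the shRFP library, by ratios from 1.66 (Gbp9) to 2.70 (Gbp2). For Gbp5 a higher value was fixed by the filter, because it reached 1 TPM with shETV4 only. TPM is transcript abundance scaled to length and to the library total, so levels can be compared between genes, but the depth behind each value is unknown. Since these are bulk libraries, more cells expressing a gene and more RNA per cell cannot be told apart. Etv4, the targeted gene, was at 73.2 TPM with shRFP against 16.2 TPM with shETV4, 4.52-fold lower.

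Gbp2, which carries a prenylation signal and is recruited to vacuoles that contain microbes, was the most abundant GBP gene in both libraries. It reached 24.7 TPM under shRFP and 66.8 TPM under shETV4, a ratio of 2.70. Gbp3, a member of the same chromosome 3 cluster, was second at 20.75 and 43.9 TPM, a ratio of 2.11. These genes stood close together with shRFP, Gbp2 being 1.19 times Gbp3, and farther apart with shETV4, at 1.52 times. Gbp7, which is known to act in host defence with the phagocyte oxidase and autophagy proteins, was at 3.72 and 6.89 TPM, a ratio of 1.85. Gbp5, known for promoting assembly of the NLRP3 inflammasome, was at 0.72 and 1.82 TPM, a ratio of 2.53. It was thus the least abundant member although its ratio was second only to that of Gbp2. Gbp5 passed the filter through the shETV4 library alone, so nothing is read from its ratio or the rank of that ratio.

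Of the chromosome 5 members, Gbp6 was the most abundant, at 11.15 TPM with shRFP against 26.0 TPM with shETV4, a ratio of 2.33. Gbp9 was at 5.66 and 9.40 TPM, a ratio of 1.66, the smallest of the 7. Gbp4, reported as an inhibitor of the interferon regulatory factor IRF7, was at 1.17 and 2.08 TPM, a ratio of 1.78. The chromosome 5 members summed to 18.0 and 37.5 TPM, a ratio of 2.08, and the chromosome 3 members to 49.9 and 119 TPM, a ratio of 2.39. Whether the 2 clusters differ was not tested.

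**Figure D1:**
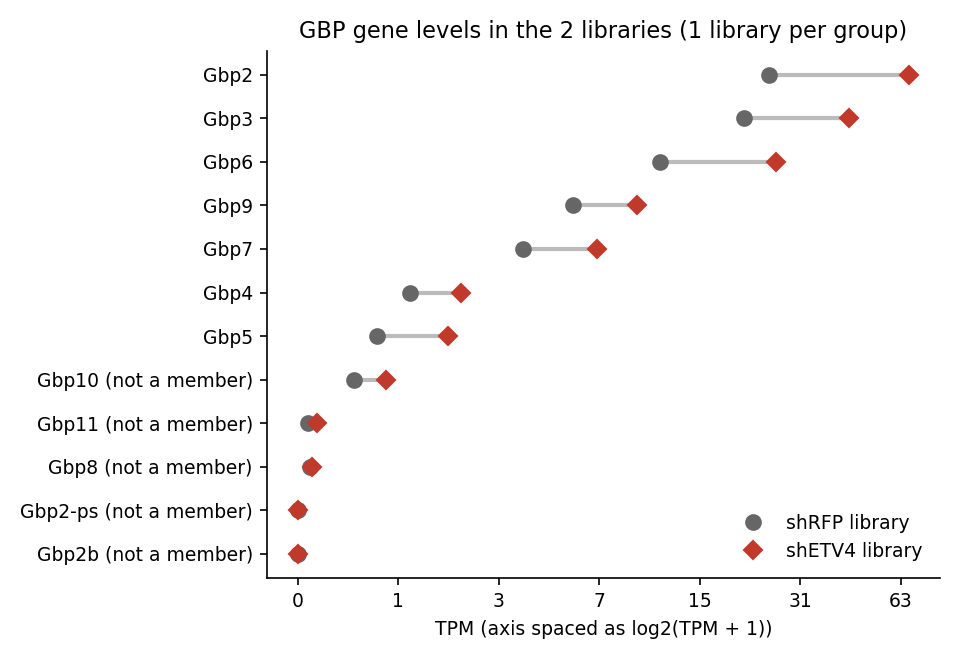
Level of each of the 12 GBP genes in TPM, on an axis spaced as log2(TPM + 1), with the shRFP library as circles, the shETV4 library as diamonds and a line joining the values of a gene. All 7 members lie farther right with shETV4, from Gbp2 at 24.7 and 66.8 TPM down to Gbp5 at 0.72 and 1.82 TPM, and Gbp2b and Gbp2-ps are at 0 in both.

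The order of the levels, Gbp2, Gbp3, Gbp6, Gbp9, Gbp7, Gbp4, Gbp5 and then Gbp10, was the same in both libraries. The widest step between neighbouring members lay between Gbp7 and Gbp4, at 3.18 times with shRFP and 3.31 times with shETV4. The narrowest was between Gbp2 and Gbp3 with shRFP and between Gbp4 and Gbp5 with shETV4, at 1.14 times. With no spread over replicates, it cannot be said which neighbours in this order differ. At its shETV4 level Gbp2 lay within the upper 17.2% of genes evaluated, against 39.7% at its shRFP level, whereas 87.0% of those genes were at or above Gbp5 with shETV4.

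All 12 GBP genes together summed to 68.5 TPM with shRFP against 158 TPM with shETV4, a ratio of 2.31. Gbp2, Gbp3 and Gbp6 made up 82.6% of that sum with shRFP and 86.5% with shETV4. They held 80.1 of the 89.4 TPM by which the sums differed, or 89.5%. The share of Gbp2 alone was 36.1% and 42.3%, while those of Gbp3 (30.3% and 27.8%) and Gbp9 (8.26% and 5.95%) were smaller with shETV4. The share of Gbp6 was 16.3% and 16.5%. The composition of the family was thus similar in both libraries apart from the larger part taken by Gbp2.

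The 5 other GBP genes stayed low. Gbp10, the close copy of Gbp6, was at 0.47 and 0.83 TPM. Gbp8 was at 0.09 and 0.10 TPM, where rounding to 2 decimals alone allows a ratio between 1 and 1.24. Gbp11, annotated as a polymorphic pseudogene, was at 0.07 and 0.14 TPM. Gbp2b, the mouse gene earlier called Gbp1, and Gbp2-ps were listed at 0 in both libraries.

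To set the members beside all genes, the difference of a gene was taken as log2(shETV4 TPM + 1) minus log2(shRFP TPM + 1), a scale that understates the change of low genes. A gene counts as called higher or lower past 2-fold on that scale. Of the 7 members 3 were called higher, Gbp2 at 1.40, Gbp6 at 1.15 and Gbp3 at 1.05, and none lower. The background is the 12968 genes that reach 1 TPM in either library, of which 3.39% (439) passed 2-fold upward and 7.06% (916) downward. Gbp7 at 0.74, Gbp5 at 0.71, Gbp9 at 0.64 and Gbp4 at 0.51 lay within 2-fold. The members' median difference was 0.74, against -0.10 over all these genes, of which 41.6% lay above 0. Since the members were picked with these differences known, nothing is read from their count.

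By the plain ratio of TPM, 4 of the 7 members reached 2 or more (Gbp5 besides the 3 above), as did 5.5% of all genes evaluated. Of these 4, Gbp5 had passed the filter with shETV4 only. Ranked by difference, Gbp2 was number 216 from the top, Gbp6 number 337 and Gbp3 number 404. Gbp4 had the lowest rank of the members, with 10.5% of evaluated genes above it. The 3 protein-coding genes outside the family, at 5 TPM or more, whose difference lay nearest to the members' median were Nme4 at 63.8 and 107 TPM, Cd320 at 63.2 and 106 TPM and Entpd4b at 18.9 and 32.3 TPM. With 1 difference per gene, this likeness rests on a single number.

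**Figure D2:**
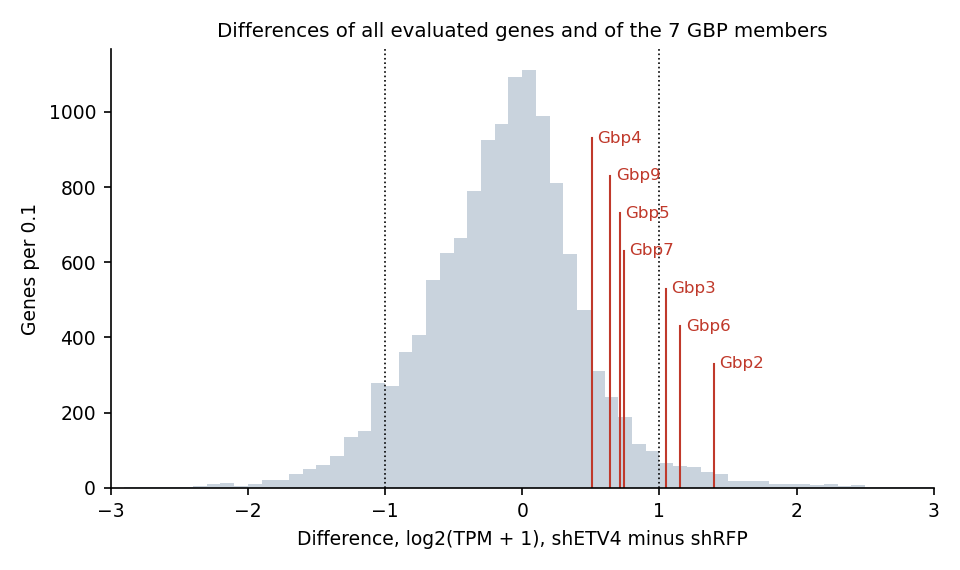
Number of evaluated genes per 0.1 of the difference on the log2(TPM + 1) scale, shETV4 minus shRFP, with each of the 7 members as a labelled line whose height has no meaning. Dotted lines mark 2-fold; Gbp3, Gbp6 and Gbp2 lie past the upper one and the other 4 members between 0.51 and 0.74.

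Base composition moved with the difference across all genes, and the members are poor in GC. Their median transcript GC content ran from 42.2% (Gbp6) to 49.3% (Gbp3), against a median of 50.7% over evaluated genes. Among the 4463 evaluated genes in that range of GC content, the median difference was -0.37 and 21.1% lay above 0. After subtraction of the running median over GC content, 5 members were called higher, against 3.98% of evaluated genes (515, with 298 called lower): Gbp6 at 1.80, Gbp2 at 1.59, Gbp7 at 1.27, Gbp9 at 1.23 and Gbp3 at 1.17. Gbp4 and Gbp5 came to 0.89 and 0.88, and the median of the 7 was 1.23. The members' differences lay above the median of genes of like GC content, which for Gbp5 was fixed by the filter. Since the members were picked with their differences known, nothing is read from this or from the count called. What sets the GC trend across all genes was not tested.

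**Figure D3:**
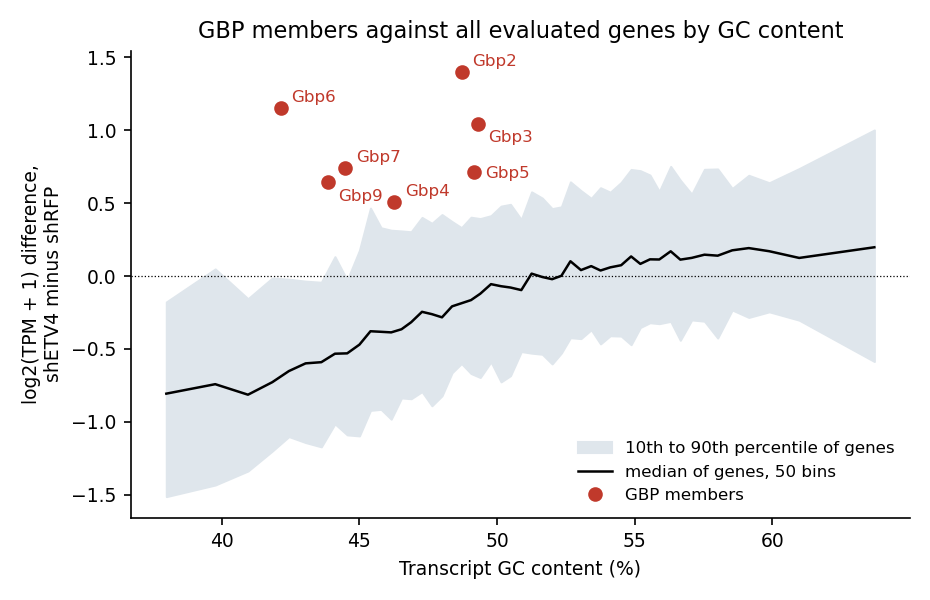
Difference on the log2(TPM + 1) scale, shETV4 minus shRFP, against transcript GC content in percent. The line is the median and the band the 10th to 90th percentile of evaluated genes in 50 bins, and the 7 labelled members, between 42.2% and 49.3% GC, lie above both.

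Close sequence copies limit how reads could be divided within the family. On chromosome 3 of GRCm38, 6 GBP genes lie in 175 kb in the order Gbp5, Gbp7, Gbp3, Gbp2b, Gbp2 and Gbp2-ps, all on the plus strand. The members among them are Gbp5 (ENSMUSG00000105504) at chr3:142493978-142522344, Gbp7 (ENSMUSG00000040253) at chr3:142530342-142550149, Gbp3 (ENSMUSG00000028268) at chr3:142560026-142573209 and Gbp2 (ENSMUSG00000028270) at chr3:142620602-142638008. On chromosome 5, 6 more GBP genes lie within 332 kb on the minus strand, in the order Gbp8, Gbp9, Gbp4, Gbp10, Gbp6 and Gbp11 along the chromosome. Of these, Gbp9 (ENSMUSG00000029298) covers chr5:105077630-105139539, Gbp4 (ENSMUSG00000079363) covers chr5:105115767-105139586 and Gbp6 (ENSMUSG00000104713) covers chr5:105270702-105293698. The coding sequences of Gbp6 and Gbp10 were 98.4% identical over 1836 aligned bases. Of all 75-base stretches in Gbp6 transcripts, 67.3% also occur in another GBP gene or in Gm43302, a locus annotated across both genes that shares 29.0% of the exonic bases of Gbp6 and 46.3% of those of Gbp10. Gm43302, named here after its value was seen, was at 2.35 and 4.70 TPM. Summed over Gbp6, Gbp10 and Gm43302, the level was 14.0 TPM with shRFP against 31.5 TPM with shETV4, a ratio of 2.26 against 2.33 for Gbp6 alone.

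Gbp7 shares 11.3% of its exonic bases with the annotated locus Gm43802. For the members other than Gbp6, stretches with an exact match in another GBP gene were rare. They made up 3.61% of Gbp9, 3.08% of Gbp4, 2.06% of Gbp3, 1.25% of Gbp7, 0.955% of Gbp2 and 0% of Gbp5. Gbp3 and Gbp7 were 78.3% identical in their coding sequence, and Gbp2 and Gbp2b 82.5%, yet Gbp2 was the most abundant GBP gene and Gbp2b was listed at 0. Between Gbp2 and the chromosome 5 genes the identity was lower, for example 62.9% with Gbp6. Among the chromosome 5 members it was higher, at 90.2% for Gbp4 and Gbp6, 90.7% for Gbp4 and Gbp9 and 90.9% for Gbp6 and Gbp9. How reads were divided among these members was not tested. GENCODE models of Gbp8, Gbp9 and Gbp4 start at nearly the same place and share a short first exon, which is 1.16% of the exonic bases of Gbp9 and 0.814% of those of Gbp4. The longest coding sequence of the family is that of Gbp5, with 724 codons, and those of Gbp2, Gbp6, Gbp9, Gbp3, Gbp4 and Gbp7 have 589, 611, 619, 620, 631 and 638.

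None of the measured genes that flank the clusters was called higher. Of the 4 nearest protein-coding genes on each side of each cluster, 11 of 16 were measured and 2 were called lower. Before GC adjustment their median difference was -0.58 and the highest value 0.17 (Spp1). Over all evaluated genes 3.39% were called higher and 7.06% lower, so with 11 genes nothing is read from these counts. Next to Gbp5, across 98.3 kb, the LIM-domain gene Pdlim5 was at 32.1 TPM with shRFP against 19.35 TPM with shETV4. On the other side, beyond Gbp2, Kyat3, an aminotransferase gene, was at 15.1 and 15.8 TPM, the general transcription factor gene Gtf2b at 41.2 and 34.4 TPM and the kinase gene Pkn2 at 21.6 and 10.1 TPM. Lmo4 was at 57.15 and 58.15 TPM. Bmpr1b, Unc5c and Pdha2 were under 1 TPM.

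Around the chromosome 5 cluster, Pkd2 and Spp1 were at 27.5 and 423 TPM with shRFP, against 24.5 and 476 TPM with shETV4. The genes of the LRRC8 anion channel on the far side were lower: Lrrc8b at 3.06 and 1 TPM, Lrrc8c at 13.8 and 8.88 TPM and Lrrc8d at 112 and 68.9 TPM. Zfp326 was at 22.9 and 12.7 TPM, while Abcg3 and Zfp951 were under 1 TPM. Pkn2 at -1.03 and Lrrc8b at -1.02 were the called genes, and after GC adjustment they came to -0.44 and -0.55. The adjustment took Zfp326 from -0.80 to 0.01, Gtf2b from -0.25 to 0.22 and Pkd2 from -0.16 to 0.003. Kyat3 came to 0.43, Spp1 to 0.70 and Lmo4 to 0.11. Pdlim5 at -0.69, Lrrc8d at -0.70 and Lrrc8c at -0.46 remained negative. The lower values of flanking genes thus in part followed the GC trend of all genes.

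**Figure D4:**
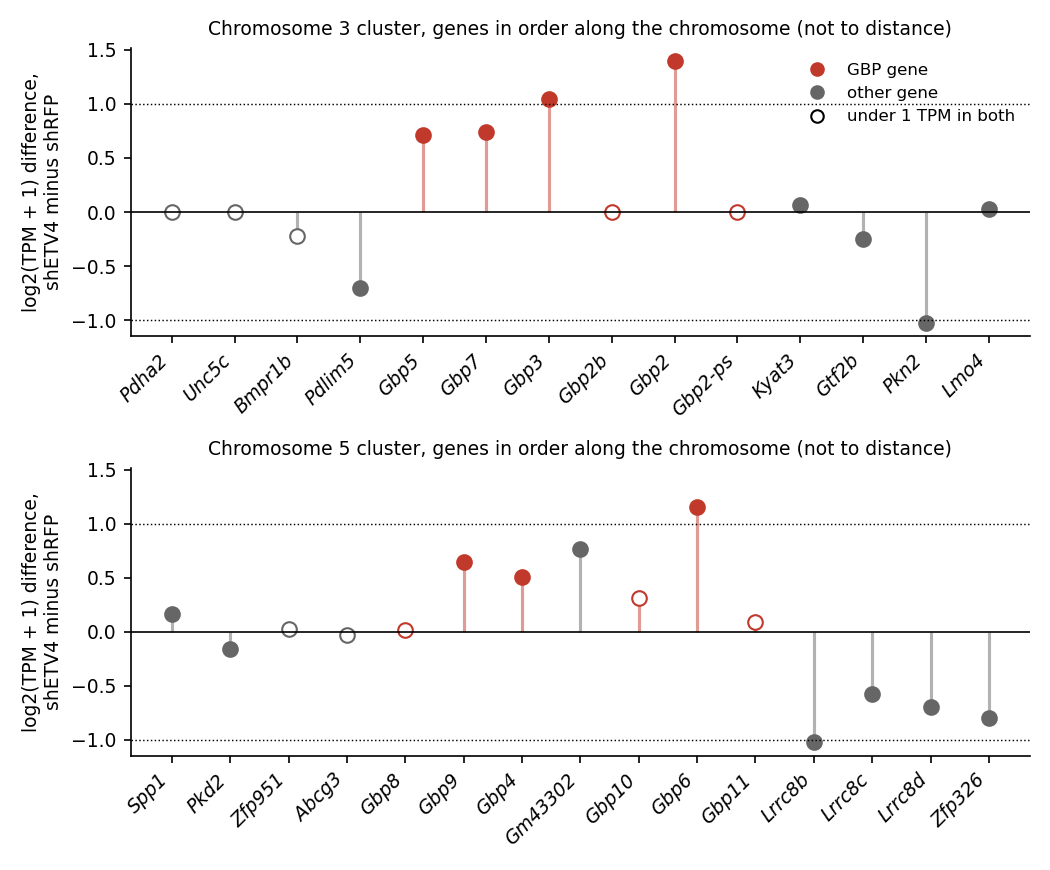
Difference on the log2(TPM + 1) scale, shETV4 minus shRFP, for GBP genes (red) and other genes (grey) in their order along each cluster, with open circles for genes under 1 TPM in both libraries and dotted lines at 2-fold. The 7 members stand at 0.51 to 1.40, the flanking genes between -1.03 and 0.17, and Gm43302, inside the chromosome 5 cluster, at 0.77.

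The genes that carry the interferon signal to the GBP promoters were then set beside the members, from lists of genes drawn up with earlier results of these data known. For all lists below, the background is 3.39% of evaluated genes called higher, 7.06% called lower and 41.6% above 0. A listed gene that reached 1 TPM with shETV4 only had to lie above 0. Nothing is read from the list counts. Of the interferon genes themselves, none of the 9 ligands in the list reached 1 TPM, and 8 were at 0 in both libraries. Ifnb1, the gene of interferon-beta, was listed at 0 with shRFP and at 0.68 TPM with shETV4. Of 9 receptor and JAK kinase genes 8 were measured, none was called in either direction, and their median difference was 0.12. The type I interferon receptor genes Ifnar1 and Ifnar2 were at 40.6 and 35.2 TPM with shRFP, against 36.6 and 46.1 TPM with shETV4. Ifngr2, a chain of the interferon-gamma receptor, was at 27.55 and 37.0 TPM. Ifngr1, the other chain, was lower at 15.7 and 12.6 TPM, and so was the kinase gene Jak1 at 45.9 and 26.9 TPM. Of the 8 measured genes 4 lay above 0.

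Of 10 genes listed as transcription regulators of GBP genes or of other genes in the interferon response, 7 were measured. All 7 lay above 0, against 41.6% of evaluated genes, with a median of 0.95. Of these 7, 3 were called higher and none lower, against 3.39% and 7.06% of evaluated genes. Stat2, which acts at ISRE elements, was at 19.3 and 48.1 TPM, a ratio of 2.50. Nlrc5, the class I transactivator rather than a known factor of GBP genes, was at 3.08 and 9.91 TPM and was among those called. Irf9, which binds ISRE elements together with Stat2, was at 34.2 and 66.9 TPM, just within 2-fold at 0.95. Irf1, which GBP induction by interferon-gamma requires, was at 55.7 and 76.35 TPM, and Irf2 at 16.5 and 24.65 TPM. Stat3 was at 55.9 and 75.3 TPM, and Irf8, Batf2 and Ciita were under 1 TPM.

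Of 6 inhibitors of JAK-STAT signalling, 1 was called higher and none lower, with a median of 0.60. Ptpn6, at 0.42 and 1.24 TPM, reached 1 TPM with shETV4 only and had to lie above 0. The median is the midpoint of its difference, 0.66, and that of Socs3, 0.54, so nothing is read from that median. Usp18, an interferon-induced brake on the type I receptor, was at 53.3 TPM with shRFP against 183 TPM with shETV4, a ratio of 3.43. Socs1 and Socs3 were at 5.83 and 24.7 TPM with shRFP, against 10.6 and 36.4 TPM with shETV4. Ptpn2, a phosphatase of the pathway, was lower at 33.3 and 18.8 TPM, with a difference of -0.79 that came to -0.14 after GC adjustment. Pias1 was at 5.96 and 5.27 TPM.

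The IRGs are smaller GTPases that work on the same vacuoles as the GBPs. Of 12 IRG genes 9 were measured and all 9 lay above 0, against 41.6% of evaluated genes. Among them 5 were called higher and none lower, against 3.39% and 7.06%. Gm12250, which was called, and Gm4951, at 0.63 and 1.08 TPM, reached 1 TPM with shETV4 only and had to lie above 0. The median difference was 1.30 beside 0.74 for the GBP members. Whether the families differ was not tested. Igtp was at 12.9 and 67.9 TPM, Irgm2 at 10.1 and 52.3 TPM and Ifi47 at 9.72 and 31.9 TPM. Gm12250, known as Irgb10, was at 0.33 and 4.76 TPM. Irgm1 was the most abundant, at 69.5 and 140 TPM, and Tgtp2 was at 21 and 40.3 TPM, both within 2-fold on the log2(TPM + 1) scale. Igtp and Irgm2 share part of their exons, 8.01% of the exonic bases of Igtp. Close copies such as Tgtp1, at 2.27 and 4.77 TPM, make the division of reads uncertain here as well.

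Other large GTPases related to the GBPs lay on both sides of 0. Of 7 genes 5 were measured, with a median of 0.12. Mx1 and Mx2, which interferon induces, were called higher, with Mx1 at 0.69 and 4.72 TPM and Mx2 at 3.85 and 18.8 TPM. Mx1 reached 1 TPM with shETV4 only, so it had to lie above 0. The atlastins share the GTPase fold of the GBPs but shape the endoplasmic reticulum. Atl2 was at 19.8 and 12.2 TPM and Atl3 at 28.2 and 18.0 TPM, both lower within 2-fold, and Atl1 was at 1.14 and 1.32 TPM. After GC adjustment Atl2 came to 0.07 and Atl3 to -0.36.

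Genes of the inflammasome and pyroptosis, through which GBPs are known to act in infected macrophages, were mostly unmeasured. Of 10 genes 3 reached 1 TPM and none was called. Casp4 was at 8.61 and 10.1 TPM, and Gsdmd, whose product forms the pyroptotic pore, at 12.9 and 24.05 TPM, a difference of 0.85. Ninj1, needed for membrane rupture, was at 42.6 and 61.2 TPM. Casp1, Aim2, Nlrp3, Nlrp1b, Pycard and Il18 were under 1 TPM, and Il1b was listed at 0 in both libraries.

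The ATG8 conjugation system, which directs GBPs and IRGs to their target membranes, was measured in all 10 genes, and none was called, the median being 0.26. Gabarap was at 270.2 and 403 TPM, Map1lc3b at 118 and 165 TPM, Gabarapl1 at 116 and 166 TPM and Map1lc3a at 48.3 and 65.6 TPM. Among 8 genes that mark damaged vacuoles, 1 was called higher and 1 lower, with a median of 0.40. Trim21, an antibody receptor and ubiquitin ligase, was at 3.61 and 13.0 TPM. Tax1bp1, an autophagy receptor, was at 35.2 and 14.7 TPM, with a difference of -1.20 that came to -0.55 after GC adjustment. Sqstm1, Lgals3, Lgals9 and Nbr1 were at 512, 171, 118 and 32.2 TPM with shRFP, against 758, 303, 183 and 30.7 TPM with shETV4.

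The prenylation enzymes that attach the membrane anchor of some GBPs were measured in all 6 genes and none was called, with a median of -0.09. The farnesyl and geranylgeranyl transferase subunit Fnta was at 83.4 and 81.05 TPM, Zmpste24 at 36.8 and 24.1 TPM, Rce1 at 32.2 and 39.0 TPM and Icmt at 24.9 and 22.7 TPM. Of 12 genes taken as typical output of interferon-gamma, 6 were measured and all 6 lay above 0, against 41.6% of evaluated genes. Among the 6, Cd274, at 0.69 and 2.29 TPM, reached 1 TPM with shETV4 only and had to lie above 0. None of the 6 was called, and their median was 0.44. Cxcl10, a chemokine, was at 122 and 197 TPM. The class II genes Cd74 and H2-DMa were at 8.48 and 5.08 TPM with shRFP, against 12.8 and 5.19 TPM with shETV4. Icam1 was at 3.24 and 4.36 TPM. The class II genes H2-Aa, H2-Ab1 and H2-Eb1 were under 1 TPM in both libraries, as were Cxcl9, Cxcl11 and Ido1.

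**Figure D5:**
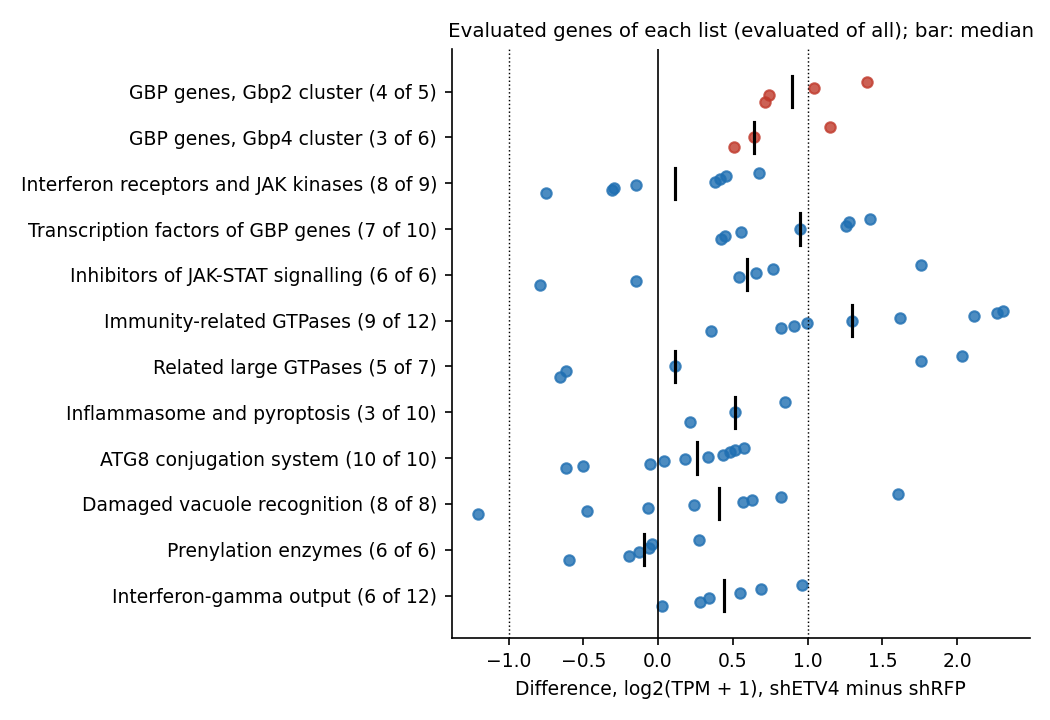
Difference on the log2(TPM + 1) scale, shETV4 minus shRFP, of each evaluated gene (point) in the gene lists, with the number evaluated of all genes in brackets, the list median as a bar and dotted lines at 2-fold. The 2 GBP lists have medians of 0.89 and 0.64, the IRG list 1.30 and the prenylation list -0.09.

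Markers of other cell types were read beside these values. Of 9 leukocyte markers 1 reached 1 TPM, Cd68 at 1.01 and 1.98 TPM; 4 were at 0 in both libraries, Ptprc was at 0 and 0.03 TPM, and the list summed to 1.86 TPM with shRFP against 2.43 TPM with shETV4. None of 6 endothelial markers reached 1 TPM. The label of hepatocellular carcinoma was not borne by hepatocyte markers: none of 6 reached 1 TPM, and Alb, Fgb and Cyp2e1 were at 0 in both libraries. Of 8 progenitor and biliary markers 4 were measured (Spp1, Sox9, Krt19 and Cd24a), with sums of 611 and 614 TPM that were mostly Spp1. Epcam, Krt7, Prom1 and Afp were under 1 TPM in both libraries. Cd24a was called lower, at 132 and 55.5 TPM, and its difference of -1.23 came to -1.15 after GC adjustment; its part in the GBP values was not tested. Of 6 stellate cell and fibroblast markers 4 were measured, none was called and the list summed to 634 TPM with shRFP against 855 TPM with shETV4, mostly Col3a1 and Col1a1; its part in the GBP values was not tested.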

How the data were processed

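Libraries of total RNA came from a TruSeq kit according to the labels' protocols. Each library's group was taken from its treatment label. The authors deposited 1 TPM value per gene record, rounded to 2 decimals; the headers name no unit, and TPM was inferred from column sums of 999999.77 and 999870.3. The submitters' processing notes list HISAT2, RSEM and GRCm38.p4 but give neither role nor version. No source used here gives annotation, strand setting, filters or depth, so no counting interval is given. The members and all gene lists were chosen with earlier results of these data known.

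Of 55640 records, 153 without a gene symbol were left out; they held 1.13% and 2.67% of the TPM. GENCODE M21 on GRCm38 gave positions, exons and transcripts (99.4% of records matched by identifier), and a RefSeq table of GRCm38.p6 the promoter windows. The protein table and the genome sequence were not used here, so residues and protein identity are not reported. A gene was evaluated, or measured, from 1 TPM in either library and called past 2-fold on log2(TPM + 1). GC content is the median over a gene's transcripts, and its adjustment subtracts the median difference in 50 bins of equal size. Coding identity comes from a global alignment of the longest complete coding sequence of each gene with Biopython 1.88. The text names the members, the other GBP genes, the cluster neighbours and the 3 genes nearest to the members' median. From each list it names up to 4 called genes in each direction and up to 4 abundant genes within 2-fold. Genes listed only as under 1 TPM or at 0, Gm43302 with its sum, Ifnb1, Cd274 and the shared 75-base stretches were added after values were seen. So were Ifngr1 and Ptpn6. One gene that this rule would name is not reported here. Alternatives were pseudocounts of 0.1 and 5, no filter or one at 5 TPM, scaling by the median ratio or by a trimmed mean (the mean of log ratios trimmed by 30% of ratios and 5% of means), thresholds of 1.5-fold and 3-fold, protein-coding genes alone, GC adjustment and summed records of a symbol. Python 3.11.15, numpy 2.4.6, pandas 2.3.3 and matplotlib 3.10.9 were used, and the procedure was tested on simulated data.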

Additional observations from a re-analysis of the deposited data

How the results depend on the processing

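All 7 members lay above 0 under every alternative that gave them a value (75 of 75 values over 11 alternatives). Gbp4 and Gbp5 have none at a filter of 5 TPM. Pseudocount, filter, threshold, gene type and summed records could not change the sign of a member's difference, so this count is no check on it. Both scalings and the GC adjustment raised the members' values. The number called higher, 3, ran from 0 to 6. It was 1 with pseudocount 5 (Gbp3 at 0.92 and Gbp6 at 0.94), 6 at 1.5-fold, 0 at 3-fold and 5 with GC adjustment; it was 4 with pseudocount 0.1 and 3 under the other 6 alternatives. The members' median, 0.74, was 0.45 with pseudocount 5, 1.08 with pseudocount 0.1, where Gbp5 came to 1.23, 1.05 at a filter of 5 TPM, 0.74 against a 1.5-fold threshold and 1.23 with GC adjustment. Over all genes, 674 were higher and 1459 lower with pseudocount 0.1, 167 and 267 with pseudocount 5, 1117 and 2591 at 1.5-fold and 162 and 162 at 3-fold. There were 252 higher genes at a filter of 5 TPM, 247 among protein-coding genes and 298 lower with GC adjustment. The median ratio of the libraries was -0.07 and the trimmed mean -0.08 on the log2 scale.

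Genes called higher in the lists changed as follows. The Gbp2 cluster had 3 with pseudocount 0.1 and with GC adjustment, 1 with pseudocount 5, 4 at 1.5-fold and 0 at 3-fold. The Gbp4 cluster had 0 with pseudocount 5, 2 at 1.5-fold, 0 at 3-fold and 2 with GC adjustment. IRGs had 7 with pseudocount 0.1, 6 on both other scales, 4 at 3-fold and among protein-coding genes, 3 with pseudocount 5, 3 at a filter of 5 TPM, 8 at 1.5-fold and 9 with GC adjustment. Related large GTPases had 1 with pseudocount 5, at a filter of 5 TPM and among protein-coding genes. JAK-STAT inhibitors had 2 with pseudocount 0.1 and 3 at 1.5-fold, receptors and kinases 1 and inflammasome genes 1 at 1.5-fold, damaged-vacuole genes 3 at 1.5-fold and transcription factors 2 with pseudocount 5, 4 on both other scales, at 1.5-fold and with GC adjustment, and 0 at 3-fold. Interferon-gamma output had 1 with pseudocount 0.1, on both other scales and with GC adjustment, and 2 at 1.5-fold. No replicate could be left out and no paired analysis was possible because each group holds 1 library. The deposited values keep no depth, so what depth limits cannot be stated.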
